A study of Mus musculus with 8 samples.

Results

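Vil1, Mep1a, Spink4, Muc5ac and Smoc2 are marker genes of the gut epithelial lineages, and 6 regions of changed histone methylation lay at them. Trimethylation of histone H3 at lysine 27 (H3K27me3) was profiled by chromatin immunoprecipitation and sequencing (ChIP-seq) in crypt epithelial cells of the jejunum of female mice. The 4 control samples carry the genotype label Control/WT, and the 4 double-knockout samples (DKO) the label Kdm6a/Kdm6b knockout. All 8 were taken 7 days after ablation, and the labels do not give the age of the mice, the driver of the ablation or whether animals were pooled. A region counted as belonging to a gene if the authors' deposited table named that gene as overlapped by it or flanking it. The 5 genes are among 333 gene names in the table, and their 6 regions are among 378. They were chosen from that table, so their presence and their direction in it are a description of the choice and were not tested.

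H3K27me3 is laid down by Polycomb repressive complex 2 and is found over silent genes, often across broad domains. The demethylases UTX and JMJD3, encoded by Kdm6a and Kdm6b, remove it. Crypts hold the stem cells from which the absorptive enterocytes and the mucus-secreting goblet cells of the villus arise, and genes that mark these fates are switched on or off along that path. Vil1 and Mep1a mark the enterocyte brush border, Spink4 and Muc5ac mark goblet or mucous cells, and Smoc2 marks crypt stem cells. The table measures chromatin and not expression, so the labelled cell type could not be checked against the level of its markers.

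Of the 5 genes, 2 had a promoter sequence in the RefSeq table used (build GRCm38.p6). These were Vil1 and Mep1a. Both are shown, to place them against the changed regions: the first lies inside one and the second outside both regions of its gene. The Vil1 promoter is chr1:74409134-74409433 on the plus strand and the Mep1a promoter is chr17:43502724-43503023 on the minus strand. Each runs from 250 bases before the start used for that promoter to 50 bases after it. For Vil1 that start is the 5′ end of the RefSeq gene. The Mep1a promoter instead lies inside the RefSeq gene, whose 5′ end is at 43504143, so its start is a different one. Capitals mark the motif matches described in the next paragraph.
Vil1 promoter: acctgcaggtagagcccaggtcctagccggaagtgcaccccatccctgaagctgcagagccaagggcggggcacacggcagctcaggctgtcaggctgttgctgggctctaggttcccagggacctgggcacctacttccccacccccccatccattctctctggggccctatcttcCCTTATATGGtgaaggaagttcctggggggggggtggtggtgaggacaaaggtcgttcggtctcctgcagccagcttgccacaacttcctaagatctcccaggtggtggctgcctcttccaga
Mep1a promoter: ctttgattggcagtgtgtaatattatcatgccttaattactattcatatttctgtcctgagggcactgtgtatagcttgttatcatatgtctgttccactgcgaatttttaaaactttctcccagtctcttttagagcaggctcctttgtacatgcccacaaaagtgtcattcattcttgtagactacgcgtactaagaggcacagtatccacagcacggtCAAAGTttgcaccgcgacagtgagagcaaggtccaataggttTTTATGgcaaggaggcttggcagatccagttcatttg

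The search covered both strands and 5 motifs chosen after the sequences had been read, namely the TATA box TATAAA, the GATA factor motif AGATAA, the CDX motif TTTATG, the HNF4 half-site CAAAGT and the CArG box. The Vil1 promoter held 1 CArG box, the kind of sequence bound by serum response factor, at positions 178 to 187 counted from the 5′ end of the printed sequence. A CArG box was present in 1.63% of 32851 RefSeq promoters of the same length. The Mep1a promoter held the HNF4 half-site in the spelling CAAAGT at positions 222 to 227, before its start. It held the CDX motif at positions 264 to 269, past that start. These motifs were present in 14.4% and 11.9% of the promoters. HNF4 and CDX factors are regulators of intestinal genes. No match overlapped another, and neither promoter held TATAAA (13.6% of promoters) or AGATAA (11.2%). Apart from the CArG box, each motif was searched only in the exact spelling given. Other spellings of the same sites were not looked for, so no promoter is said to lack sites for these factors. The Vil1 promoter was 61.7% G and C with 5 CpG sites, and its ratio of observed to expected CpG was 0.175, against a median of 0.384 over all promoters. The Mep1a promoter was 42.3% G and C with 6 CpG sites and a ratio of 0.446. Both counts lay below the median of 7.0 CpG sites over all promoters, while the Mep1a ratio lay above the median ratio.

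All 6 regions were up in the authors' deposited table, and their log2 fold changes (log2FC) ran from 0.84 to 1.56 (1.79-fold to 2.96-fold). They are the authors' values for 1 representative window of each region. Up regions made up 0.438% of the regions tested and changed regions of either direction 0.641%. The table lists only regions at a false discovery rate (FDR) below 0.05 and holds no value per sample. Neither library depth nor the spread between replicates can therefore be given, and the fold changes have no standard error. The table does not name its reference group, and up is read here as higher in DKO only by the usual convention. Vil1 stood apart from the other marker genes in size, and the remaining 5 regions differed among themselves by 0.15 at most on the log2 scale.

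**Figure D1:**
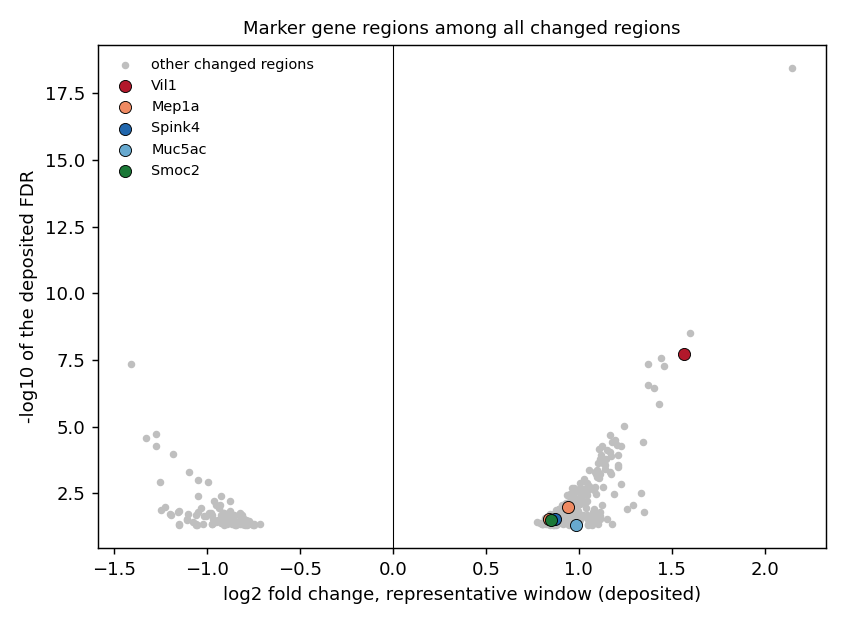
Deposited log2FC (x axis) and −log10 of the deposited FDR (y axis) for the 378 changed regions, with the 6 regions at marker genes coloured. Vil1 lies at 1.56 on the x axis, and the other 5 coloured regions lie between 0.84 and 0.99 in the dense lower part of the up regions.

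Vil1 encodes villin, which bundles the actin filaments of brush border microvilli. Its region, at chromosome 1, 74407001 to 74413000 (mm10), ran from 2.38 kb before the start of the gene to 3.62 kb after it. It covered the promoter printed above and 13.8% of the 26177 bases of the gene. In the authors' deposited table its log2FC was 1.56 (2.96-fold), with an FDR of 1.87e-08. It ranked 3 by p-value among all 378 regions and 3 by log2 fold change among the 258 up regions, behind regions at Ncald and Slc6a20a. It was a narrow region, 6.0 kb wide, against a median of 17.25 kb for all up regions. All 21 of its windows, the short overlapping intervals on which the tests were made, were counted as up in the authors' deposited table. The best window had a log2FC of 1.59 in the authors' deposited table, against 1.56 for the representative one. At an FDR of 0.01, which 0.187% of tested regions met, Vil1 was the only member still called.

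At this locus the table listed a change only at the start of Vil1. No other changed region was listed within 100 kb, where RefSeq has 6 further protein-coding genes, among them Slc11a1, Ctdsp1 and Usp37. The nearest changed region was 532.25 kb away, at Ihh, and was also up. Absence from the table does not show that H3K27me3 was the same in both groups there, because regions that were tested and missed the threshold are not listed. Cre transgenes built with Vil1 regulatory DNA are widely used to delete genes in this epithelium, and reads from such DNA would map to the start of Vil1. Since the labels do not name the driver, more H3K27me3 at the endogenous gene and more copies of this DNA in the DKO samples cannot be told apart.

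Mep1a encodes meprin alpha, a metalloprotease made by enterocytes. Both of its regions lay at the far end of the gene and neither reached the promoter. The gene is on the minus strand of chromosome 17, from 43474324 to 43504143. The first region, 43474001 to 43477500, covered 3.18 kb at the 3′ end of the gene, 10.7% of its length, and 0.323 kb beyond it. In the authors' deposited table its log2FC was 0.84 (1.79-fold, FDR 0.0297), with 10 of 10 windows up. The second region, 43465501 to 43473000, lay wholly downstream, 1.32 kb past the 3′ end. Its log2FC was 0.94 (1.92-fold, FDR 0.0104), and 27 of 37 windows were up, in the authors' deposited table.

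The Mep1a regions were 1.0 kb apart and together spanned 12 kb, with 37 of 47 windows up and 0 down. They are neighbours at the 3′ end of a single gene and were not counted as independent. Their nearest edge was 25.2 kb from the Mep1a promoter shown above. The closest other protein-coding gene was Adgrf5, which encodes an adhesion receptor, 5.94 kb from the downstream region. The table named only Mep1a at both, and no further changed region lay within 100 kb. For Vil1 and Mep1a, both brush border genes, the changed regions thus lay at opposite ends of the gene.

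**Figure D2:**
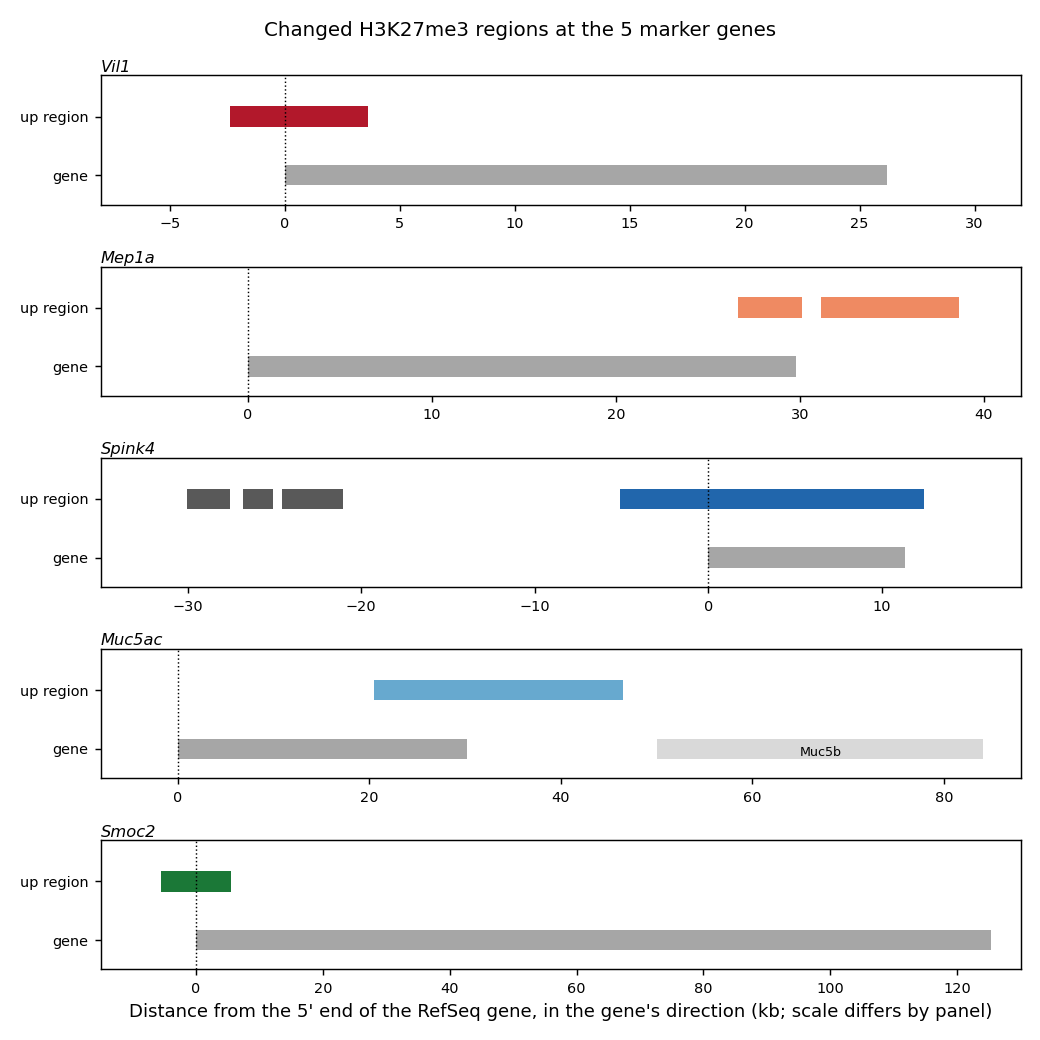
Position of the changed regions at each marker gene, in kb from the 5′ end of the RefSeq gene in the direction of the gene (dotted line at 0; the scale differs by panel). Gray bars are genes, coloured bars the regions named for the marker gene and dark bars the 3 further up regions near Spink4; regions cross the gene start at Vil1, Spink4 and Smoc2, but not at Mep1a or Muc5ac.

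Spink4 encodes a Kazal-type serine protease inhibitor expressed in goblet cells. Its region, at chromosome 4, 40915001 to 40932500, was the only one of the 6 that covered the whole of its marker gene. It contained all 11340 bases of Spink4, 5055 bases before its start and 1105 bases beyond its end. In the authors' deposited table the log2FC was 0.87 (1.83-fold) with an FDR of 0.0293. All 90 windows were counted as up in the authors' deposited table. Of 129 up regions at least 17.5 kb wide, 3 had every window counted as up, and Spink4 was among them. That limit is the width of the Spink4 region itself, so it was set beside regions of its own width or wider. The next gene, Bag1, which encodes a co-chaperone, lay 3.9 kb past the end of the region.

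Spink4 was the only marker gene with changed regions within 100 kb other than its own. There were 3, all up and all upstream, 16 to 22.5 kb from the Spink4 region. The one nearest to Spink4, 40895501 to 40899000, had a log2FC of 0.89 (FDR 0.0207) and 9 of 9 windows up in the authors' deposited table. The next, 40893251 to 40895000, had a log2FC of 1.05 (FDR 0.0429) and 3 of 4 windows up in the authors' deposited table. The farthest, 40890001 to 40892500, had a log2FC of 0.85 (FDR 0.0314) and 4 of 5 windows up in the authors' deposited table. The table named no gene at them, while RefSeq places all 3 inside Gm34289, a long noncoding RNA gene. With Spink4 the 4 regions spanned 42.5 kb, of which they covered 25.25 kb, and 106 of their 108 windows were up. A further changed region within 100 kb was common in the table, present at 114 of the 258 up regions (44.2%) and at 3 of the 6 regions here, including both of Mep1a.

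Muc5ac encodes a gel-forming mucin, best known from the surface mucous cells of the stomach and the goblet cells of the airway. It lies in a cluster of gel-forming mucin genes with Muc6, Muc2, the main mucin of intestinal goblet cells, and Muc5b. Its region, at chromosome 7, 141809501 to 141835500, was the widest of the 6 at 26 kb. It did not reach the start of the gene, which lies 20.5 kb before it. It covered the last 9.73 kb of Muc5ac, 32.1% of the gene, and 16.3 kb of the stretch between Muc5ac and Muc5b. The table placed the start of Muc5b 3.57 kb past its end.

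The Muc5ac log2FC was 0.99 (1.98-fold) in the authors' deposited table, the second highest among the marker genes. It was the closest of the 6 to the threshold, with an FDR of 0.0491 that ranked 377 of 378 by p-value. Only 35 of its 146 windows (24.0%) were counted as up in the authors' deposited table, and 0 as down. The other 111 are in neither count. How windows were counted is not stated, so those 111 may have changed too. Muc2 and Muc6 had no listed region, and the Muc2 gene ended 54.8 kb before the Muc5ac region. No other changed region lay within 100 kb, and the nearest was 2461.5 kb away.

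**Figure D3:**
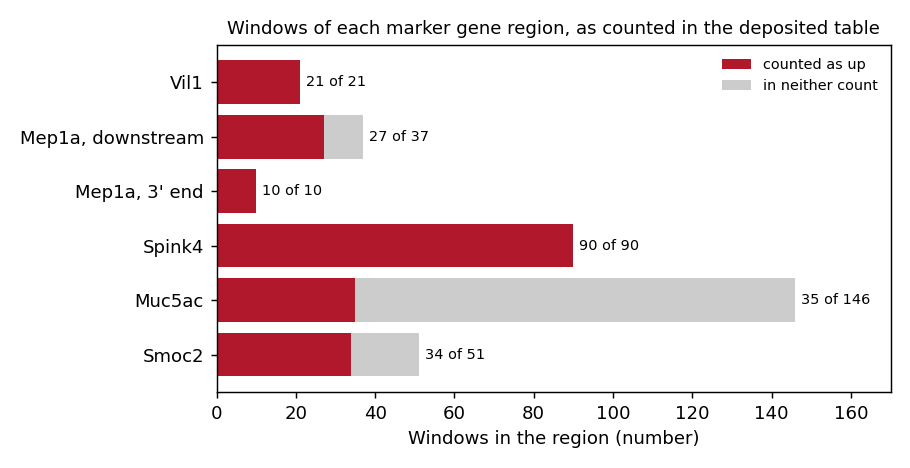
Number of windows in each of the 6 regions (x axis), split into those the deposited table counted as up (red) and those in neither count (gray); none was counted as down. Every window was up at Vil1, Spink4 and the 3′ end of Mep1a, against 35 of 146 at Muc5ac.

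Smoc2 encodes a secreted calcium-binding protein of the SPARC family that is enriched in Lgr5-expressing stem cells. Its region, at chromosome 17, 14274001 to 14285000, was nearly centred on the gene start, from 5.49 kb before it to 5.51 kb after it. The 5.51 kb inside the gene are 4.4% of the 125301 bases of Smoc2, and the rest of the gene had no listed region. In the authors' deposited table the log2FC was 0.85 (1.80-fold) with an FDR of 0.0327, and 34 of 51 windows (66.7%) were up. RefSeq also has the noncoding genes Gm34567 and Gm52280 in the region, which the table did not name. Smoc2 was the most isolated of the 5, with the nearest changed region 14231 kb away and none within 100 kb.

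Set beside each other, the regions at Vil1, Spink4 and Smoc2 covered a promoter and the 3 at Mep1a and Muc5ac did not. That share, 3 of 6, is near the 50.4% of all up regions that overlapped a promoter. The median share of windows up was 86.5% in the 6 regions and 72.2% in all up regions. All windows were up in 3 of 6 against 47 of 258 (18.2%). These shares are not compared at like width. The median width was 9.25 kb in the 6 regions and 17.25 kb in all up regions. Of the 129 up regions at least as wide as the Spink4 region (17.5 kb), 3 had every window up, Spink4 included. The median log2FC was 0.91 here and 0.96 in all up regions, both from the authors' deposited table, and without Vil1 it was 0.87. Apart from Vil1, the 5 regions ranked from 109 (Muc5ac) to 243 (the 3′ end of Mep1a) of 258 up regions by log2FC in the authors' deposited table. These figures compare regions chosen by name with the list they came from, and with 6 regions at 5 genes they carry no test.

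**Figure D4:**
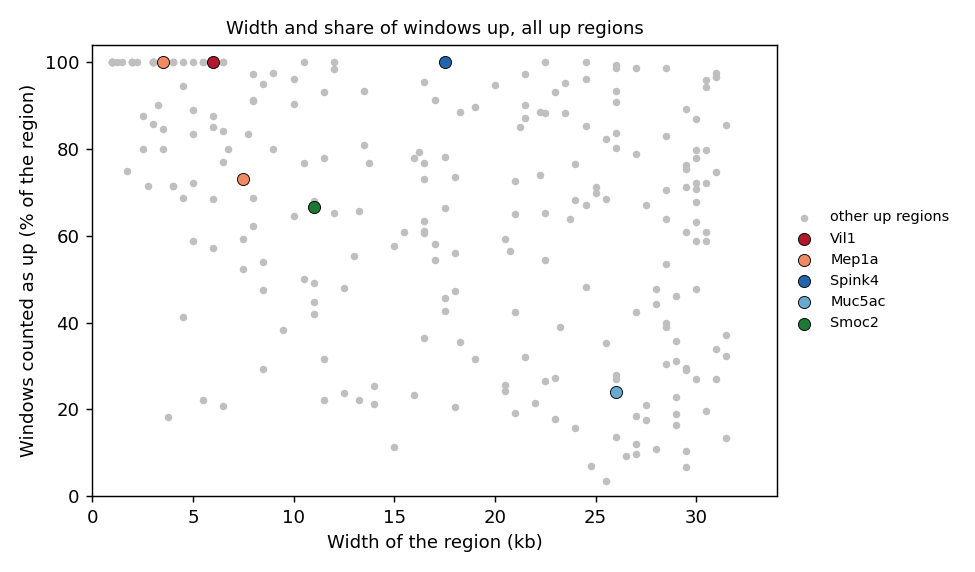
Width (x axis, kb) and percent of windows counted as up (y axis) for the 258 up regions, with those at marker genes coloured. Spink4, at 17.5 kb and 100% of windows, and Muc5ac, at 26 kb and 24.0%, lie far apart on the vertical scale.

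Other lineage markers were counted in the same way. As a baseline, 0.909% of 21900 RefSeq protein-coding genes were overlapped by an up region or lay within 5 kb of one, 0.397% were that near to a down region, and 1.31% to a region of either direction. Of 35 enterocyte genes, 4 were overlapped by an up region or lay within 5 kb of one, and no down region was listed at any: Vil1, Mep1a and the amino acid transporter genes Slc6a20a and Slc6a20b. The transporter genes lay at 3 regions of chromosome 9, with log2FC values of 1.37 to 1.60 in the authors' deposited table. Slc6a20b was overlapped only by the region with a log2FC of 1.43, which also overlapped Slc6a20a. Of 24 goblet or mucous cell genes, 3 were near up regions and 0 near down regions by the same distance: Spink4, Muc5ac and, through the Muc5ac region alone, Muc5b. Among 22 stem cell genes Smoc2 alone was listed, and Lgr5, Olfm4 and Ascl2 had no listed region. None of 17 Paneth, 23 enteroendocrine or 15 tuft cell genes was listed in either direction. In all, 8 of 136 genes in the 6 epithelial lists were near up regions and 0 near down regions. Some of the 8 shared a region and are not independent. Of the regions tested, 0.438% were called up and 0.204% down. The 5 members were chosen as changed and stand in these lists, and the Slc6a20 genes were known as changed, so nothing is read from the difference to the baseline.

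Relatives of the marker genes were counted in the same way, with the members themselves in the lists. In the list of villin relatives and brush border genes, Vil1 and Mep1a were the 2 of 18 at a changed region, so that Vill, Avil, Mep1b and the others were not listed. Spink4 was the only one of 12 Spink genes, and Smoc2, but not Smoc1 or Sparc, the only one of 8 SPARC family genes. The genes found in these lists were the chosen members alone, so nothing is read from the counts. Of markers for cells outside the epithelium, 0 of 16 stromal and 1 of 18 immune genes were listed, against the 1.31% of all protein-coding genes near a changed region, and nothing is read from a single gene. That was the natural killer cell receptor gene Klrb1c, at 2 down regions with a log2FC of -1.28 apiece in the authors' deposited table. A share of immune cells that differed between the groups could move chromatin marks at such genes, and its part in these results was not tested. In bulk chromatin, a change in every cell and a change in the share of cells that carry the mark cannot be told apart.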

How the data were processed

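H3K27me3 ChIP-seq of 8 samples, 4 control and 4 DKO, was used as 1 deposited table of the authors' comparison. Formaldehyde fixation preceded chromatin digestion with micrococcal nuclease, per the labels' protocols. Per the submitters' processing notes, the genome build was mm10 and the tools were edgeR, SICER 1.0.3, Picard 1.141, SAMtools 1.11, Bowtie 0.12.7 and FastQC 0.10.1. Their order and settings were not given in the sources used here. Per the file headers, the authors deposited each region's position, window counts, p-value, FDR and log2 fold change of a representative and a best window. Columns of values per sample numbered 0, so nothing was refitted and the count test planned for such values was not run.

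Annotation fields were read from column 15 on, since they hold unquoted commas. Letters were read as overlaps (P promoter, E exon, I intron), digits as distances in bases. The FDR values were reproduced from the p-values with 58963 tests by the Benjamini-Hochberg method, a step tested on simulated data. Gene positions and promoters came from RefSeq (GRCm38.p6, the same build), in which all 5 genes matched a gene and 2 a promoter. Genes named in the text were the 5 members, genes at or within 100 kb of their regions, list genes at changed regions and relatives of the members; a few unlisted list genes and the genes used for ranks were named after their values were seen. The members and gene lists were chosen with earlier results of these data known. Alternatives were an FDR of 0.01, a log2 change of 1 or more in either direction, the overlap field alone, the best window, any flanking distance, and distances of 50 and 200 kb. Python 3.11.15, pandas 2.3.3 and NumPy 2.4.6 were used.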

Additional observations from a re-analysis of the deposited data

How the results depend on the processing

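Alternatives gave 17 values, of which 12 had the same direction and lay within 1.5 times of the reported one, 5 were counts that moved further and 0 reversed. Of the 5 marker genes at a changed region, all of them up, 1 remained at an FDR of 0.01 and 1 with a log2 change of 1 or more, Vil1 in both cases. Mep1a missed the stricter FDR narrowly (0.0104), and Muc5ac the size of change (0.99), in the authors' deposited table. Of the 8 epithelial list genes, 3 remained at an FDR of 0.01. Using the best window moved none of the 6 values of the authors' deposited table by more than 0.038 on the log2 scale. For 2 of the 6 the value was identical. These counts fell by construction under stricter limits, which could not reverse a direction. Members at a changed region and members at an up region both entered the 17 values, with identical counts because all members were up. No paired analysis was possible because the table holds no value per sample, and for the same reason no replicate could be left out and no limit set by depth could be examined.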

Other observations

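RefSeq promoters that lay wholly inside a changed region differed in CpG content by direction, as a description with no test. The median ratio of observed to expected CpG was 0.386 for 146 promoters inside up regions, 0.717 for 59 inside down regions and 0.384 for all 32851. Their median counts of CpG sites were 8.5, 21 and 7.0. The Vil1 promoter, at 0.175, lay below the median of the promoters inside up regions. Promoters inside the same region are not independent, and a gene can have more than 1.

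The regions listed near a marker gene came from 2 sets of windows, told apart by the index of the representative window, which runs through the genome 2 times. Regions of a single window were 2.0 kb wide in the first set and 1.0 kb in the second. Over the whole table, 303 regions were represented by the first set and 75 by the second. Spink4 and Muc5ac were represented by the second, and Vil1, Smoc2 and both Mep1a regions by the first. At the Spink4 locus the sets alternated along the chromosome, with the first set at 40890001 and 40895501 and the second at 40893251 and 40915001.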
